A study of Mus musculus with 5 samples.

Results

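Strong PU.1 sites shared by pDC and cDC are the regions where ChIP-seq, the sequencing of DNA precipitated with a PU.1 antibody, gave at least 10 CPM in every library of both cell types at the same window. CPM is the count of a window per 1000000 counts of its library over the windows used. The deposited counts cover 10 bp windows on a 50 bp grid, windows with 1000 or more input counts were left out, and windows at most 100 bp apart were merged. This gave 67237 regions, of which 2874 (4.27%) met the rule. The sites were thus chosen by the summit levels of these same PU.1 libraries, so those levels are given as a description. For comparison, 1020 regions reached 10 CPM at a shared window in both pDC libraries only, 1307 did so in both cDC libraries only, and 14 did so in each cell type but at different windows.

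Both cell types were grown in Flt3L culture from mice of a strain labelled C56BL/6. Plasmacytoid dendritic cells (pDC) are known for type I interferon production, and conventional dendritic cells (cDC) for presenting antigen to T cells. There were 2 PU.1 libraries of pDC, 2 PU.1 libraries of cDC, described as biological replicates, and 1 input library of unprecipitated chromatin, labelled as cDC, which also has to serve for pDC. Counts over the windows used totalled 7282573 and 5656601 in pDC replicates 1 and 2, 9881243 and 10345955 in cDC replicates 1 and 2, and 704301 in the input, so that 10 CPM stood for 72.8, 56.6, 98.8 and 103 counts in the PU.1 libraries. The table holds no expression data, so the labelled cell types could not be checked against transcript markers, and a weaker signal from fewer bound cells and one from less PU.1 per cell cannot be told apart.

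PU.1, encoded by Spi1, is a transcription factor of the ETS family that binds DNA around a GGAA core, most tightly in a purine-rich setting, and it is required for the development of myeloid cells and dendritic cells. It can bind alone or together with the interferon regulatory factors IRF4 and IRF8 at composite sites in which a GGAA is followed by a GAAA. It is known as a regulator of myeloid receptor, adhesion and signalling genes.

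To show what such a site looks like, sequences that hold the purine-rich motif are given first. The following stretches of 30 bases come from RefSeq promoters (GRCm38.p6) whose 300 bases, from 250 before to 50 after the gene start, hold the summit of a shared strong site. The summit is the window of the region where the lowest PU.1 library was highest. Capitals mark the motif GAGGAAGT, written 5′ to 3′ on the strand that carries it, and the genes were picked after their values were seen, from the highest sites with the motif close to the summit, with Tlr9 and Inpp5d added as named genes.
Cd300lf, chr11:115133974-115134003, minus strand: agtggctaaagGAGGAAGTgccgagtgaga
Cd53, chr3:106790125-106790154, plus strand: gcgagaagagtGAGGAAGTgagactgagtg
Fgd2, chr17:29360904-29360933, minus strand: gagtgaaaaaaGAGGAAGTggtcccagtag
Arpp19, chr9:75037666-75037695, plus strand: tttgagggaaaGAGGAAGTgctcgggcgtc
Pik3cg, chr12:32208643-32208672, plus strand: atccagatgcaGAGGAAGTgttgcagttac
Rab32, chr10:10558232-10558261, minus strand: tagccagggaaGAGGAAGTgccgggaccag
Tlr9, chr9:106222597-106222626, minus strand: ctcagagaattGAGGAAGTgacactttcac
Inpp5d, chr1:87620281-87620310, plus strand: gtttctataatGAGGAAGTtctgtgcagct

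The values at 3 of these promoters show the spread between libraries. At Cd300lf, an inhibitory receptor gene of myeloid cells, the summit had 50.7 and 40.1 CPM in pDC, against 35.4 and 34.1 CPM in cDC. At Cd53, a leukocyte tetraspanin gene, it had 41.5 and 45.4 CPM in pDC, against 31.8 and 38.4 CPM in cDC. At Pik3cg, the gene of the leukocyte phosphoinositide 3-kinase gamma catalytic subunit, it had 27.7 and 29.0 CPM in pDC, against 21.8 and 26.4 CPM in cDC. None of these 3 sites was called different between the cell types, although both pDC libraries were above both cDC libraries at each. Over all regions tested, 29% had both pDC libraries above both cDC libraries by whole-region signal, and 28.7% had the reverse. A lack of overlap at a named site, here and below, is therefore only a description. The centre of the motif lay 17, 34 and 2 bp from the centre of the summit window at Cd300lf, Cd53 and Pik3cg.

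A smaller set of promoter sites carried other GGAA motifs. Dapp1 and Cd68 held the composite ETS and IRF form, in which GGAA and GAAA stand with 2 bases between them, and Sbno2 and Kifc1 held CCGGAAGT, the form preferred by many other ETS factors, shown in capitals on the strand that carries them.
Dapp1, chr3:137981544-137981573, plus strand: tggctagcaaGGAAGTGAAActtggttgct
Cd68, chr11:69666128-69666157, plus strand: tcttggaagaGGAAATGAAAagcctcactt
Sbno2, chr10:80102663-80102692, minus strand: gcgcccagaacCCGGAAGTgagcggcggcc
Kifc1, chr17:33890785-33890814, minus strand: gaagagcggatCCGGAAGTaggatccaagg

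The summit at Cd68, a lysosomal glycoprotein gene of phagocytes, had 27.3 and 24.9 CPM in pDC, against 19.3 and 23.1 CPM in cDC. At Dapp1, a phosphoinositide-binding adaptor gene, it had 39.4 and 25.6 CPM in pDC, against 23.5 and 22.8 CPM in cDC. Both pDC libraries were above both cDC libraries at these sites, where 29% of all regions were by whole-region signal, and neither site was called.

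For 2 genes the whole 250 bases before the start are shown because they differ in how the core GGAAGT is arranged. Capitals mark the core on either strand, so ACTTCC is the core read from the other strand. Traf3ip3 (chr1:193201547-193201796, minus strand), the gene of a TRAF3-interacting protein, held 3 cores, and Laptm5 (chr4:130913066-130913315, plus strand), a lysosomal membrane protein gene of blood cells, held 1, which lay 63 bp before the start with the summit 61 bp before it.
Traf3ip3: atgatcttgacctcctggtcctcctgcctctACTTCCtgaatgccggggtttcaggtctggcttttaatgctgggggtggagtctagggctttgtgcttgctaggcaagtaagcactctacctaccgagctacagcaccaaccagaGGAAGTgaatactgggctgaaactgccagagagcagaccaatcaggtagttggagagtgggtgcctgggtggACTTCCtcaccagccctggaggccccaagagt
Laptm5: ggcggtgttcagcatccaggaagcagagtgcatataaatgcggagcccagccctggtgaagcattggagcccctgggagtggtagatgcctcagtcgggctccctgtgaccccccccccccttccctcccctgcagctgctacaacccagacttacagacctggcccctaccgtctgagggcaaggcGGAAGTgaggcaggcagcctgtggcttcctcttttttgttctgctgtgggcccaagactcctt

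Traf3ip3 had 31.3 and 28.3 CPM in pDC, against 27.5 and 26.7 CPM in cDC. Its summit was higher in each pDC library, but over the whole region the log2 fold of pDC minus cDC was -0.042. The site was not called. Laptm5 had 37.5 and 24.9 CPM in pDC, against 30.3 and 26.4 CPM in cDC, and there the groups overlapped.

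Across the genome, the PU.1-type motif was common at shared strong promoter sites. The summits of 182 shared strong sites lay in 209 RefSeq promoters of 194 genes, and 89 of these promoters (42.6%, 95% Wilson interval 36.1% to 49.4%) held GAGGAAGT on either strand. The share was 3.13% of all 21238 promoters, 30.9% of 55 promoters at sites strong in pDC only, 34.4% of 32 at sites strong in cDC only, 6.03% of 3729 at all other regions, and 1.88% of 17211 promoters with no summit. The interval at shared sites overlapped those of the cell-type-restricted sites (20.3% to 44.0% for pDC only and 20.4% to 51.7% for cDC only) and lay above that of all other regions (5.31% to 6.84%). The core GGAAGT, which both 8-letter ETS motifs contain, was in 90.0% of promoters at shared strong sites and in 24.8% of all promoters; it was added after the data were seen. With 1 promoter per region the share with GAGGAAGT was 43.4%.

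Other motifs differed less from the background. CCGGAAGT was in 16.7% of promoters at shared strong sites, against 16.7% at all other regions and 5.15% of all promoters. The composite ETS and IRF motif, which can overlap the core, was in 7.66% (16 promoters), against 2.53% of all promoters. TGTGGT, a Runx motif, was in 12.9%, against 14.97% of all promoters. TGANTCA, an AP-1 motif, was in 3.35%, against 6.99%. TTGCGCAA, a C/EBP motif, was in none of the 209, against 0.221%. GGGCGG, an Sp motif of CpG-rich promoters, was in 53.1%, against 66.1% at all other regions and 46.2% of all promoters. A match or its lack says only whether these letters are in the 300 bases.

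The share with GAGGAAGT was higher in promoters with more PU.1 signal, also among sites below 10 CPM. It was 3.90% of 2282 promoters whose summit had under 2 CPM in the lowest library, 14.0% of 387 at 4 to 6 CPM, and 23.5% of 102 at 8 to 10 CPM. Among shared strong sites it was 32.3% of 65 promoters at 10 to 12 CPM, 33.9% of 59 at 12 to 15 CPM, 48.4% of 62 at 15 to 20 CPM and 78.3% of 23 at 20 CPM or more. CCGGAAGT showed no such order and was in none of the 23 promoters at 20 CPM or more. These promoters also held fewer CG pairs, with a median of 10 at 20 CPM or more and 21 under 2 CPM, and the part of base composition in these shares was not tested. The nearest GAGGAAGT lay a median of 20 bp from the summit centre and within 50 bp in 89.9% of the 89 promoters. The nearest GGGCGG lay a median of 41 bp away and within 50 bp in 55.0% of 111 promoters. At all other regions the nearest GAGGAAGT also lay a median of 20 bp away, and within 50 bp in 81.8% of 225 promoters.

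**Figure D1:**
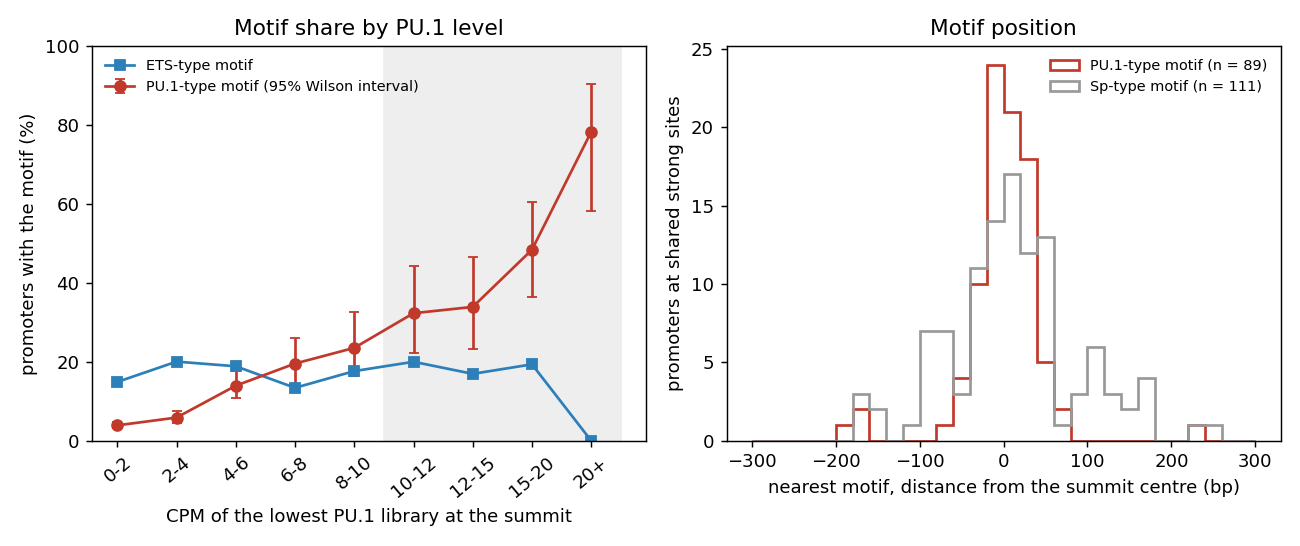
Left, share of promoters (%) with the PU.1-type motif GAGGAAGT (circles, 95% Wilson interval) and the ETS-type motif CCGGAAGT (squares) by the CPM of the lowest PU.1 library at the summit; the shaded levels are shared strong sites, and the circles climb to 78.3%. Right, number of promoters at shared strong sites by the distance (bp) of the nearest PU.1-type or Sp-type motif (GGGCGG) from the summit centre; the PU.1-type motif gathers within 50 bp.

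The sites were wider than other regions, and most had little input. Their median width was 410 bp, against 310 bp for sites strong in pDC only, 360 bp for sites strong in cDC only and 160 bp for all other regions. Width runs over listed windows, of which the smallest had 33 counts over the 5 libraries, so it depends on the signal. The rule used that signal, so the widths are given as a description. The median summit level was 17.4 and 16.3 CPM in pDC and 16.1 and 15.9 CPM in cDC, against 2.84 CPM (2 counts) in the input. Over all 67237 regions the medians lay between 1.92 and 1.94 CPM in the PU.1 libraries, and the input median was again 2.84 CPM. At 100 bp to either side the median was 9.06 CPM in pDC replicate 1 and 8.50 CPM in cDC replicate 1, and at 150 bp it was 3.71 and 3.64 CPM. The sites made up 8.26% of the windows and held 26.0% and 24.3% of the counts of pDC, 23.7% and 23.4% of those of cDC, and 14.5% of those of the input.

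**Figure D2:**
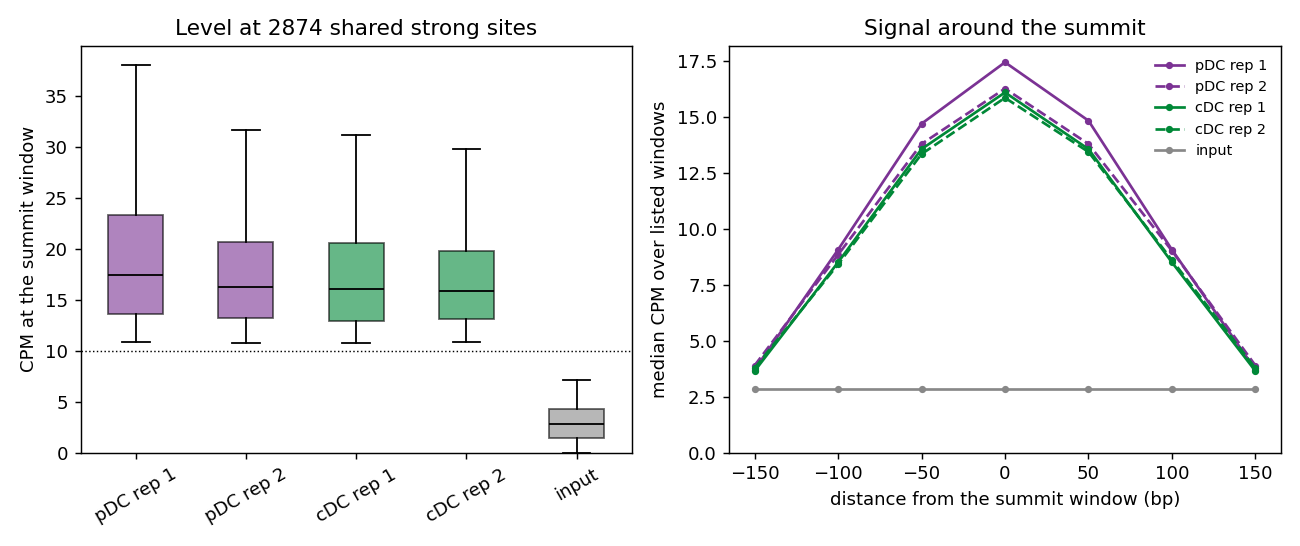
Left, CPM at the summit window of the shared strong sites in each library (box, quartiles and median; whiskers, 5% to 95%; dotted line, 10 CPM). Right, median CPM of each library by distance (bp) from the summit window, over the windows listed there; the PU.1 medians drop from 17.4 to 3.71 CPM in pDC replicate 1 while the input stays at 2.84 CPM.

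Most sites lay not far above the floor. The lowest of the 4 PU.1 libraries had a median of 13.6 CPM and a maximum of 61.2 CPM. It was between 10 and 12 CPM at 922 sites and at 30 CPM or more at 92. Just inside the floor were sites at Lrrfip2, Shisa5 and Spp2, each with 10.0 CPM in its lowest library, and just outside were regions at Btg1, Pik3cd and Tmem189, each with 9.96 CPM.

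The highest site with little input lay in Nnmt, the gene of nicotinamide N-methyltransferase. It had 79.2 and 63.6 CPM in pDC, against 61.2 and 61.8 CPM in cDC, and 5.68 CPM in the input. A site in Jazf1, a zinc-finger gene, had 64.7 and 46.7 CPM in pDC, against 62.5 and 58.9 CPM in cDC. A site 11.6 kb from Bcl11a, a zinc-finger regulator of pDC and B cell development, had 77.6 and 53.7 CPM in pDC, against 55.3 and 44.6 CPM in cDC. The groups overlapped at Jazf1 and near Bcl11a but not at Nnmt, and none of the 3 sites was called. Strong sites also lay far from genes, such as 1 at 288 kb from Rnd3 with 44.9 and 51.4 CPM in pDC, against 43.8 and 44.1 CPM in cDC.

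A few sites were high in the input too. At 31 sites (1.08%) the input had 10 CPM or more at the summit, against 0.614% of the other regions. In the input 10 CPM stood for only 7.04 counts. Among the 12 highest sites were 1 that lay 117 kb from Gm2244 on chromosome 14 and 1 in Mamdc2. The first had 1306 CPM of input, against 57.5 and 121 CPM in pDC and 57.0 and 55.2 CPM in cDC. The second had 921 CPM of input, against 54.9 and 110 CPM in pDC and 52.4 and 47.3 CPM in cDC. The widest site, chr17:39842901-39848960, was 6060 bp wide and lay 107 kb from the nearest protein-coding gene. It had 192 CPM of input, against 67.0 and 53.6 CPM in pDC and 31.1 and 36.3 CPM in cDC. At each of these named sites the input was above every PU.1 library, and each was called higher in pDC, where 8.01% of all regions were. DESeq2 made neither the call near Gm2244 nor that in Mamdc2. The log2 folds of pDC minus cDC at these 2 sites were 0.69 and 0.73. Without pDC replicate 2 they were 0.18 and 0.22, and without pDC replicate 1 they were 1.07 and 1.11. Without cDC replicate 1 they were 0.82 and 0.83, and without cDC replicate 2 they were 0.57 and 0.63. Without these 31 sites 2843 remained, an alternative added after the data were seen.

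Most of the sites lay in gene bodies or near them. Inside the span of a protein-coding gene lay 53.9% (Wilson interval 52.0% to 55.7%), against 54.4% of all other regions. Within 1 kb of an end of a gene span lay 13.7% (395 sites; Wilson interval 12.5% to 15.1%), against 10.2% of sites strong in pDC only (8.49% to 12.2%), 9.26% of sites strong in cDC only (7.80% to 10.95%) and 15.01% of all other regions (14.7% to 15.3%). More than 100 kb from any gene lay 154 sites (5.36%), against 7.24% of all other regions. The X chromosome held 16 sites, 1.09% of its regions, whereas 3.69% (chromosome 14) to 5.24% (chromosome 19) of the regions of each autosome were shared strong sites. The median gap between neighbouring sites was 248 kb, and 404 sites (14.1%) had another within 10 kb.

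Genes of leukocyte signalling and known PU.1 targets often held a shared strong site, and T and NK cell markers held none. Of 21887 protein-coding genes, 2313 (10.6%) had at least 1 in the gene span or within 10 kb. The share was 24 of 34 leukocyte signalling genes (70.6%), 21 of 34 known PU.1 targets (61.8%), 11 of 20 genes of MHC class II presentation (55.0%), 8 of 19 of MHC class I presentation (42.1%) and 3 of 7 of the phagocyte NADPH oxidase (42.9%). It was 13 of 38 pDC identity genes (34.2%) and 15 of 39 cDC identity genes (38.5%), and 12 of 32 dendritic cell regulators (37.5%) and 10 of 30 genes of Toll-like receptor and interferon sensing (33.3%). Housekeeping genes had 5 of 28 (17.9%), B cell markers 2 of 19 (10.53%), non-haematopoietic genes 2 of 28 (7.14%) and T and NK cell markers 0 of 24. The lists were chosen with earlier results of these data known, so these shares are given as a description. The lists share genes such as Spi1 and Ciita. The shares depend on how sites are assigned to genes: by the gene span alone they were 28.9% for pDC identity, 17.9% for cDC identity, 6 of 20 genes for MHC class II, 15.8% for MHC class I, 20.0% for Toll-like receptor and interferon sensing, 10.7% for housekeeping genes, 5.26% for B cell markers and 6.04% for all genes. By the nearest gene they were 59.4% for dendritic cell regulators and 14.3% for non-haematopoietic genes. Longer genes have more room for a site: the median span was 47.7 kb for the signalling genes, 22.4 kb for the PU.1 targets, 8.84 kb for the MHC class II genes and 17.2 kb for all genes, and the part of length in these shares was not tested.

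**Figure D3:**
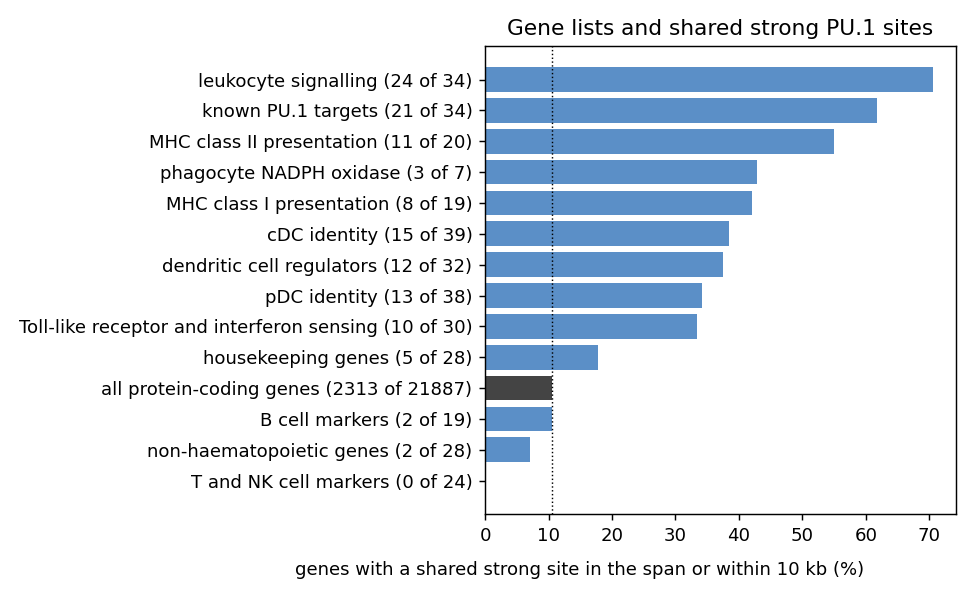
Share of genes (%) with a shared strong site in the span or within 10 kb, for each gene list (number of genes in brackets) and for all protein-coding genes (dark bar and dotted line, 10.6%). The signalling genes reach 70.6%, and the T and NK cell markers stand at 0. The lists were chosen with earlier results of these data known.

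Between pDC and cDC the signal of the whole region was compared with edgeR's quasi-likelihood test on summed counts, over 63769 regions with enough counts, among them all 2874 shared strong sites. A region was called at a Benjamini-Hochberg adjusted p below 0.05, and log2 folds are pDC minus cDC with a standard error (SE) and n = 2 libraries per cell type. Of the sites, 174 (6.05%) were called higher in pDC, where 8.01% of all regions were, and 66 (2.30%) were called higher in cDC, where 6.1% of all regions were. The median log2 fold of the sites was 0.14, against 0.01 over all regions, and 90% of the sites lay between -0.45 and 0.67. By the TMM-scaled signal of the whole region, both pDC libraries were above both cDC libraries at 1139 sites (39.6%), where 29% of all regions were. The reverse held at 518 (18.02%), where 28.7% were. At named sites the libraries are compared by their summit CPM instead. The floor in all 4 libraries limits how far a site can differ, so these counts are read as a description. With library totals in place of TMM factors, 159 sites were called higher in pDC and 96 in cDC. pDC replicate 1 was the highest library at 1358 sites, and its summit level was a median of 1.08 times that of pDC replicate 2, with an SD of 0.32 on the log2 scale; for cDC replicate 1 over cDC replicate 2 these were 1.01 and 0.20.

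**Figure D4:**
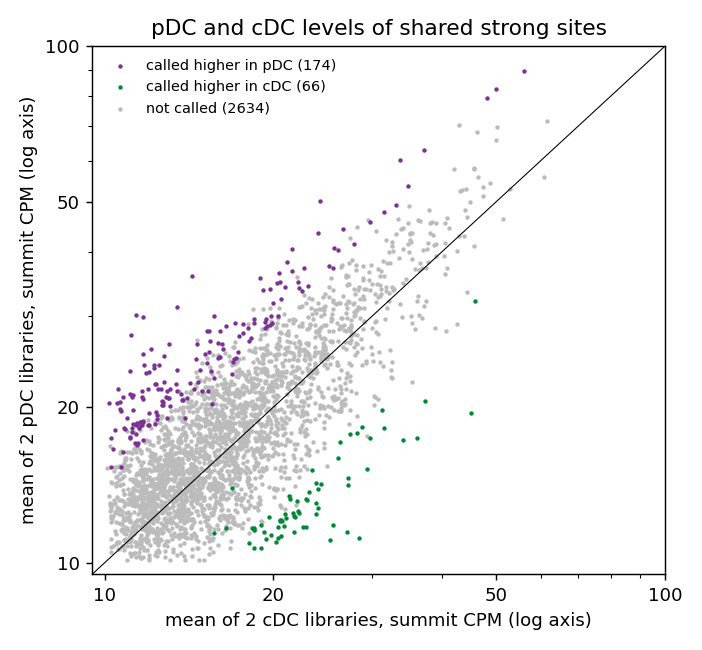
Mean summit CPM of the 2 pDC libraries (vertical, log axis) against the 2 cDC libraries (horizontal, log axis) for each shared strong site, with the 174 sites called higher in pDC, the 66 called higher in cDC and the rest in grey; the line marks equal levels. Most sites lie near the line.

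Of the 240 called sites, 17 were also called when cDC replicate 1 was left out, 37 when cDC replicate 2 was, 203 or 237 when pDC replicate 1 or 2 was, and 175 by DESeq2, and 18 passed a test against a minimum fold of 1.5. The 5 largest called folds in each direction kept their calls without any 1 library. A site 46.6 kb from Dpt, the gene of the matrix protein dermatopontin, had 36.8 and 23.5 CPM in pDC, against 11.3 and 11.4 CPM in cDC (log2 fold 1.56 ± 0.22 SE, adjusted p = 0.000728). A site in Slc39a11, a zinc transporter gene, had 33.5 and 26.2 CPM in pDC, against 11.8 and 11.6 CPM in cDC (log2 fold 1.37 ± 0.20 SE, adjusted p = 0.000772). A site in Inpp4a, an inositol polyphosphate phosphatase gene, had 39.0 and 32.9 CPM in pDC, against 13.6 and 15.1 CPM in cDC (log2 fold 1.35 ± 0.19 SE, adjusted p = 0.000637). In each of these 3, picked for their large called folds, the lower pDC library was above both cDC libraries.

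In the other direction, a site 3.24 kb from Snx22, a sorting nexin gene on the cDC identity list, had 17.4 and 21.6 CPM in pDC, against 48.2 and 41.9 CPM in cDC (log2 fold -1.19 ± 0.18 SE, adjusted p = 0.000938). It also lies 6.4 kb from the housekeeping gene Ppib. A site in Larp4b, an RNA-binding protein gene, had 10.4 and 11.7 CPM in pDC, against 23.3 and 27.2 CPM in cDC (log2 fold -1.24 ± 0.20 SE, adjusted p = 0.00119). A site 21.7 kb from Ctla4, the gene of an inhibitory receptor best known from T cells, had 10.6 and 12.4 CPM in pDC, against 25.3 and 28.8 CPM in cDC (log2 fold -1.15 ± 0.20 SE, adjusted p = 0.00216). The groups did not overlap at these sites, which were also picked for their large called folds.

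Among the regulators, Spi1 itself held 1 shared strong site, chr2:91082901-91083260, inside the gene span. It had 31.4 and 21.6 CPM in pDC, against 17.2 and 15.2 CPM in cDC, and was called higher in pDC (log2 fold 0.69 ± 0.21 SE, adjusted p = 0.0431). The call ended without cDC replicate 1, cDC replicate 2 or pDC replicate 1 (log2 folds 0.70, 0.66 and 0.36), and DESeq2 did not make it. Irf8, a regulator needed for both pDC and part of the cDC, had a site 6.76 kb from its span with 14.8 and 11.8 CPM in pDC, against 15.1 and 14.0 CPM in cDC (log2 fold -0.11). Zbtb46, a zinc-finger gene typical of cDC, had 20.0 and 16.3 CPM in pDC, against 24.2 and 20.5 CPM in cDC (log2 fold -0.29). Ikzf1, the gene of the lymphoid regulator Ikaros, had 40.9 and 25.1 CPM in pDC, against 21.9 and 23.5 CPM in cDC (log2 fold 0.43). No call was made at Irf8, Zbtb46 or Ikzf1. Both Ikzf1 values in pDC were above those in cDC, and both Zbtb46 values in cDC were above those in pDC. By whole-region signal, 29% and 28.7% of all regions were separated in these 2 directions. Of the 17 sites at dendritic cell regulators, 1 was called higher in pDC, where 8.01% of all regions were, and 1, 4.49 kb from Bcl6, higher in cDC, where 6.1% were (log2 fold -0.72, lost without cDC replicate 1 at -0.88 or cDC replicate 2 at -0.55). Irf4, Tcf4, Zfp366, Runx1 and Bcl11a held regions but no shared strong site in the span or within 10 kb.

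Of the 31 sites at known PU.1 targets, 3 were called higher in pDC, where 8.01% of all regions were, at Fcer1g, Spi1 and Nfam1. DESeq2 called 1 of the 31. Itgax, which encodes CD11c, had 19.6 and 14.8 CPM in pDC, against 20.5 and 18.4 CPM in cDC. Itgam, which encodes CD11b, had 23.3 and 18.4 CPM in pDC, against 15.3 and 15.4 CPM in cDC. Neither was called, though both pDC libraries were above both cDC libraries at Itgam, where 29% of all regions were by whole-region signal. Fcer1g, which encodes the shared Fc receptor gamma chain, had 23.6 and 18.7 CPM in pDC, against 10.8 and 11.4 CPM in cDC, and was called higher in pDC (log2 fold 0.69 ± 0.21 SE, adjusted p = 0.0377). That call ended without cDC replicate 1, cDC replicate 2 or pDC replicate 1 (log2 folds 0.65, 0.72 and 0.40) and by DESeq2. In cDC 0 of the 31 were called higher by edgeR or DESeq2, where 6.1% of all regions were by edgeR, and 1 had an unadjusted p below 0.05. At Nfam1 the call (log2 fold 0.65) ended without cDC replicate 1 (0.60) or cDC replicate 2 (0.68), and in the Simes combination of window tests. Csf1r and Btk fell just short of the floor, with 9.72 and 9.82 CPM in the lowest library of their highest region, and Flt3 and Cybb also held no shared strong site.

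Signalling genes held 40 sites, of which 6 were called higher in pDC, where 8.01% of all regions were, and 1 higher in cDC, where 6.1% were. DESeq2 called 5 and 0. Ptpn6, which encodes the phosphatase SHP-1, had 25.3 and 16.6 CPM in pDC, against 10.6 and 10.9 CPM in cDC (log2 fold 0.87 ± 0.22 SE, adjusted p = 0.0150). Pik3cd, which encodes the delta catalytic subunit of phosphoinositide 3-kinase, had 22.1 and 19.8 CPM in pDC, against 11.8 and 13.9 CPM in cDC (log2 fold 1.12 ± 0.20 SE, adjusted p = 0.00254). Both pDC libraries were above both cDC libraries at either gene, where 29% of all regions were by whole-region signal. The call at Ptpn6 ended without cDC replicate 1 (log2 fold 0.88) or cDC replicate 2 (0.85), and that at Pik3cd without cDC replicate 1 (0.96). Inpp5d, which encodes the phosphatase SHIP-1, held 4 sites along its span and none was called. Its promoter site had 18.7 and 18.6 CPM in pDC, against 18.4 and 17.0 CPM in cDC. Syk, a kinase gene, had a site 9.9 kb from its span with 60.1 and 45.4 CPM in pDC, against 46.8 and 41.7 CPM in cDC. Ptpn18, a phosphatase gene, held called sites in both directions, with log2 folds of 0.64 and -0.57, and both calls ended without either cDC replicate (0.64 and -0.53 without replicate 1, 0.63 and -0.62 without replicate 2) and by DESeq2.

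At the pDC identity genes 3 of 16 sites were called higher in pDC, where 8.01% of all regions were, and DESeq2 called 2. In cDC 0 were called higher by edgeR or DESeq2, where edgeR called 6.1% of all regions, and 0 had an unadjusted p below 0.05. Siglech, a sialic acid-binding receptor gene typical of mouse pDC, had a site 5.2 kb away with 54.0 and 37.3 CPM in pDC, against 30.8 and 28.7 CPM in cDC (log2 fold 0.66 ± 0.19 SE, adjusted p = 0.0331). Ptprs, a receptor phosphatase gene, had 23.9 and 17.3 CPM in pDC, against 14.0 and 13.6 CPM in cDC (log2 fold 0.70 ± 0.19 SE, adjusted p = 0.0270). Both sites were higher in each pDC library than in each cDC library, where 29% of all regions were by whole-region signal. Without cDC replicate 1 or 2 both calls ended (log2 folds 0.66 and 0.64 at Siglech, 0.72 and 0.67 at Ptprs), and that at Siglech also ended without pDC replicate 1 (0.37) and by DESeq2. Lifr, a cytokine receptor gene, held the third called site, with 48.3 and 50.2 CPM in pDC, against 33.7 and 32.6 CPM in cDC (log2 fold 0.59), and that call ended without cDC replicate 1 (0.55) or 2 (0.63). The Simes combination of window tests called none of the 3 sites. Of the 5 sites at housekeeping genes, 1 was called higher in pDC, where 8.01% of all regions were. Another 1, the site at Snx22 and Ppib, was called higher in cDC, where 6.1% of all regions were. The site higher in pDC lay 1.3 kb from Actb, a cytoplasmic actin gene, with 61.9 and 38.4 CPM in pDC, against 22.8 and 25.6 CPM in cDC (log2 fold 0.99, lost without cDC replicate 1 at 0.89). At the cDC identity genes 1 of 18 sites was called, higher in cDC, where 6.1% of all regions were, and this was Snx22. Xcr1, a chemokine receptor gene of a cDC subset, had a site at 15.1 and 16.1 CPM in pDC, against 15.5 and 14.6 CPM in cDC. Ly75, which encodes the endocytic receptor DEC-205, had 54.9 and 49.7 CPM in pDC, against 48.1 and 38.0 CPM in cDC.

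Some antigen presentation and nucleic acid sensing genes also held shared strong sites, which by the rule have signal in both cell types. Of the 16 sites at MHC class II genes, edgeR and DESeq2 called 0, where edgeR called 14.1% of all regions, and 2 had an unadjusted p below 0.05. How reads that match several H2 genes were counted is not given in the sources used here, so values near these paralogs are uncertain. Cd74, which encodes the invariant chain, had 25.8 and 24.6 CPM in pDC, against 19.9 and 20.2 CPM in cDC, and a site 5.9 kb from H2-Aa, a class II alpha chain gene, had 24.99 and 25.6 CPM in pDC, against 32.1 and 27.9 CPM in cDC. The groups did not overlap at either, in opposite directions. By whole-region signal, 29% of all regions had pDC above cDC and 28.7% had the reverse. Ciita, the class II transactivator gene, held 2 sites, the higher with 12.1 and 16.1 CPM in pDC, against 14.5 and 12.6 CPM in cDC. At the class I genes 1 of 9 sites was called in each direction. Over all regions 8.01% were called higher in pDC and 6.1% higher in cDC. A site 7.7 kb from Psmb9, an immunoproteasome subunit gene, was called higher in cDC, with 12.1 and 12.9 CPM in pDC, against 21.0 and 22.3 CPM in cDC (log2 fold -0.82 ± 0.18 SE, adjusted p = 0.00762). That call ended without cDC replicate 1 (-0.77) or cDC replicate 2 (-0.87). A site 0.11 kb from H2-Q4, a class I gene, was called higher in pDC, with 27.9 and 24.0 CPM in pDC, against 17.0 and 15.6 CPM in cDC (log2 fold 0.70 ± 0.20 SE, adjusted p = 0.0309), and this call ended without cDC replicate 1 (0.78) or 2 (0.62) and by Simes. Of the 12 sites at Toll-like receptor and interferon sensing genes, edgeR called 1, higher in pDC, where 8.01% of all regions were. DESeq2 called 0 of the 12. The site called by edgeR lay in Slc15a4, an endolysosomal transporter gene, with 36.1 and 24.0 CPM in pDC, against 19.4 and 20.2 CPM in cDC (log2 fold 0.65 ± 0.20 SE, adjusted p = 0.0436). The call ended without cDC replicate 1 (0.60), cDC replicate 2 (0.69) or pDC replicate 1 (0.37) and by Simes. The promoter site of Tlr9, which encodes an endosomal DNA sensor, had 27.5 and 24.7 CPM in pDC, against 20.5 and 20.1 CPM in cDC, and was not called (log2 fold 0.52 ± 0.18 SE, adjusted p = 0.0716). Myd88, the adaptor gene of most Toll-like receptors, had a site with 30.2 and 26.0 CPM in pDC, against 22.3 and 27.9 CPM in cDC, where the groups overlapped. Unc93b1 and B2m held no shared strong site.

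**Figure D5:**
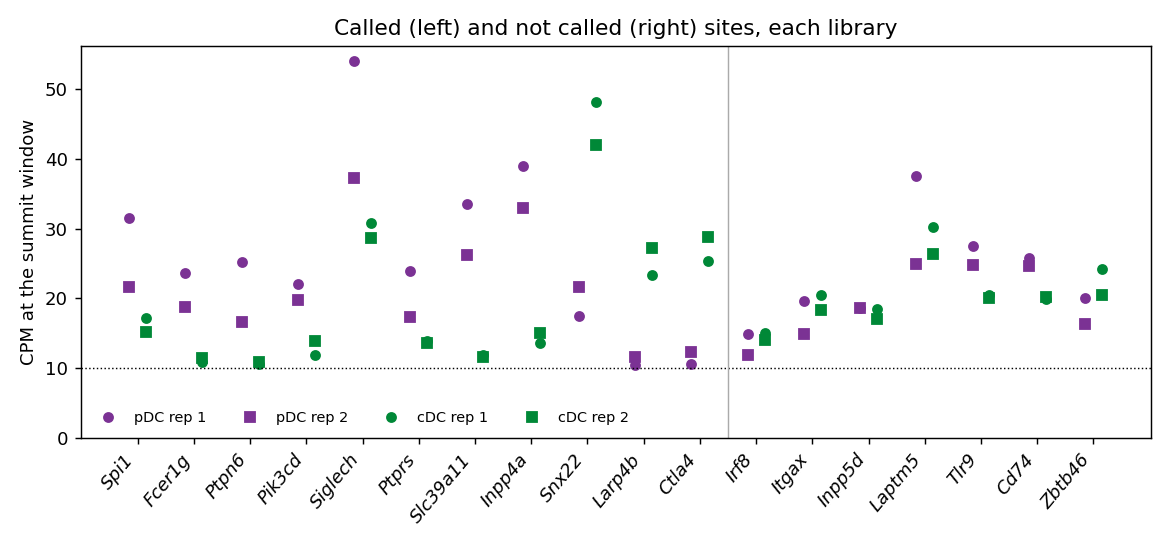
CPM at the summit window in each library (circles, replicate 1; squares, replicate 2; pDC left of cDC) for sites at named genes, with called sites left of the vertical line and sites not called right of it; for genes with several sites the first by position in that class is drawn, and the dotted line is 10 CPM. At Siglech the pDC libraries stand at 54.0 and 37.3 CPM, above both cDC libraries, and at Snx22 they stand below them.

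Most genes with a site had a single one. Of the genes with a site, 1948 had 1 and 294 had 2. Asap1, which encodes a regulator of Arf GTPases, had the most, with 6 sites in its span of 296 kb and 1 at 0.88 kb, 7 in all. Of these, 1 was called, higher in cDC, with 11.1 and 13.8 CPM in pDC, against 21.5 and 23.004 CPM in cDC (log2 fold -0.71 ± 0.19 SE, adjusted p = 0.0228), and that call ended without cDC replicate 1 (-0.72) or cDC replicate 2 (-0.71). Over all regions, 8.01% were called higher in pDC and 6.1% higher in cDC. Prkce, a protein kinase C gene, and Ccdc12 had 5 sites each. Of these, 1 at Prkce was called higher in pDC (log2 fold 0.67) and 1 at Ccdc12 higher in cDC (log2 fold -0.82). Both calls ended without cDC replicate 1 (0.82 and -0.87) or cDC replicate 2 (0.52 and -0.79), and that at Prkce also by Simes.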

How the data were processed

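PU.1 ChIP-seq libraries of pDC and cDC and 1 cDC input were read as counts per 10 bp window, raw and not normalized in the deposited table. Reads were single-end, 49 bp, per the series' design text. Subread 1.4.4 and mm10 are named in the submitters' processing notes; how windows were chosen or reads extended is not given in the sources used here. A read can be counted in several windows, so window totals are not sequencing depth, and Wilson intervals cover counting error only. The smallest sum over the 5 libraries at a window was 33 counts.

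Of 329996 windows, 146 with at least 1000 input counts were left out. CPM uses totals over the remaining 329850 windows. Region counts are sums over windows. Regions passing filterByExpr of edgeR 4.0.16 (minimum count 10; R 4.3.3) were fitted by cell type alone, scaled with TMM, and tested with the quasi-likelihood test with Benjamini-Hochberg adjustment; 3468 were removed. The SE is implied by the F statistic, and the biological coefficient of variation was 0.251. On data simulated for 63769 regions, 63.6% of 4-fold and 6.12% of 2-fold changes were recovered with 7 false calls. The changed regions were drawn from all those tested, whose median SE was 0.43, against 0.20 at the shared strong sites. Recovery at the shared strong sites alone was not measured. With 2 libraries against 2, an exact permutation test cannot go below 0.333. Alternatives were DESeq2 1.42.0, other scalings and filters, window tests combined by Simes, a replicate block and leaving out each library.

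Genes are RefSeq spans of GRCm38.p6 (no strand or exons); 352 of 353 list symbols matched. RefSeq promoters were scanned on both strands with Python 3.11.15; no genome was used, so sites outside promoters have no sequence here. The members, lists and motifs were chosen with earlier results of these data known. Named sites are the 12 highest, those at a list of 28 myeloid genes, the 5 largest called folds each way, the 5 widest, those at the 10 CPM floor, and those at the 5 genes with most sites; other sites at listed genes, and most printed sequences, were picked after their values were seen.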

Additional observations from a re-analysis of the deposited data

How the results depend on the processing

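With a floor of 5 or 20 CPM there were 8414 or 446 shared strong sites, and without 1 library between 3012 and 3207. Sites called higher in pDC and in cDC numbered 174 and 66; leaving out 1 library gave 11 to 811 and 6 to 186, and over all regions 1870 to 9997 and 1169 to 9906. Without cDC replicate 1 the counts at sites were 11 and 6, without cDC replicate 2 they were 24 and 14, without pDC replicate 1 they were 226 and 158, and without pDC replicate 2 they were 811 and 186; the lone library is then assumed to vary like the other cell type. A test against a minimum fold of 1.5 called 13 and 5 sites, and 2596 and 1387 regions. Regions averaging at least 100 counts gave 2602 and 2560 called regions. DESeq2 called 117 and 58 sites. Of the 240 called sites, 175 were called by DESeq2, 160 by Simes, 225 with library totals, 17 without cDC replicate 1 and 237 without pDC replicate 2. Without the 31 sites high in the input, 165 and 66 were called. With a replicate block, 233 and 79 sites and 5810 and 5295 regions were called; same-numbered libraries deviated together only weakly (correlation 0.0189), so the numbers were not shown to pair the samples. Within 250 bp or 5 kb of a span end lay 7.69% or 31.7% of sites, and 15.4% by any window; 1321 genes held a site in the span alone. Over 63 named sites and 13 alternatives, 684 values kept direction and call, 100 lost and 19 gained the call, and 16 of uncalled sites changed sign. The Simes log2 fold is that of the single window with the smallest p in the region, not of the whole region. It was -0.84 at Slc22a28, -0.50 at Vav1 and 0.74 at Inpp5d. With library totals the log2 fold was -0.040 at another Inpp5d site. Leaving out 1 library gave -0.36 to 0.16 at Jazf1, -0.33 to 0.069 at Irf8, -0.047 to 0.30 at Itgb2 (-0.020 without cDC replicate 1), -0.059 to 0.25 at Vav1, -0.13 to 0.14 and, further along the gene, -0.50 to 0.20 at Inpp5d, -0.12 to 0.54 at Laptm5, -0.0032 to 0.20 and -0.030 to 0.25 at 2 Ciita sites, and -0.12 to 0.093 at the second Tlr9 site (0.073 without pDC replicate 2). The cause of these shifts was not tested.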

Other observations

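Of 1005 RefSeq miRNA hairpins, 56 had a shared strong site within 10 kb, and these were looked at after the values were seen. At Mir142, a miRNA of blood cells, a site had 17.0 and 13.3 CPM in pDC, against 15.4 and 14.9 CPM in cDC, and the groups overlapped. Among longer forms of the PU.1-type motif, GAGGAAGTG was in 31.3% of 182 promoters at shared strong sites, taking 1 promoter per site, against 1.67% of 17469 promoters, taking 1 per gene.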
